A study of Mus musculus with 8 samples.

Results

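The 34 genes described here drive cells through mitosis: the cyclins and kinases that start it, the spindle and kinetochore proteins that move chromosomes, and the proteins that end it and split the cell. They were chosen by name from a table of 55880 genes, and all 34 names were found. The rule used no measured values, but earlier results of these data were known when the genes were chosen. RNA came from small intestinal crypts of C57BL/6N mice, in 4 libraries labelled miR-29ab1-/- (labelled knockout; the label names a deletion of miR-29a with miR-29b-1) and 4 libraries labelled WT (labelled wild type), none of them irradiated according to the series title. The age and sex of the mice, the way the deletion was made, and any litter or day are not stated in the labels. Whether age, sex, litter or day differed between the groups is therefore not known. The p-values set the difference between groups against the spread within groups, for these 8 libraries only.

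Crypts hold the dividing cells of the intestinal epithelium, the stem cells at the base and the transit-amplifying cells above them. Entry into mitosis is set by CDK1 with cyclins A2, B1 and B2, and the transcripts of this gene set are made late in the cell cycle by complexes that include FOXM1, B-MYB and the MuvB core. Many of their promoters carry a short element called the cell cycle genes homology region, written TTTGAA or TTCGAA, beside CCAAT boxes that bind NF-Y. MicroRNAs of the miR-29 family bind sites in 3' UTRs through their seed and lower the output of the bound transcripts. In whole-crypt RNA, fewer dividing cells and less RNA per dividing cell cannot be told apart.

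Promoters are described first. RefSeq promoters (GRCm38.p6, 250 bases before to 50 after the start) were found for 29 of the 34 genes. TTTGAA or TTCGAA on either strand was present for 22 of these 29 genes (75.9%), against 5854 of all 27025 genes with a promoter in that table (21.7%). CCAAT on either strand was present for 22 of the 29 (75.9%) against 41.1% of all genes, both motifs together for 19 (65.5%) against 8.61%, and no match of one motif overlapped a match of the other in these genes. Examples from different roles follow, each with the 110 bases that end just before the RefSeq start, with both motifs in capitals on whichever strand they lie (ATTGG is CCAAT and TTCAAA is TTTGAA on the other strand).
Cdk1, chr10:69352913-69353022, minus strand: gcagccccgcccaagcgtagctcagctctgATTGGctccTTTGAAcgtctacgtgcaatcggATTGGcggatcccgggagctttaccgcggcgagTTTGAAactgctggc
Top2a, chr11:99024190-99024299, minus strand: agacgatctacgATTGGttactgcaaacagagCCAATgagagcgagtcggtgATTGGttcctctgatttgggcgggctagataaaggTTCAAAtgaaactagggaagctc
Ube2c, chr2:164769819-164769928, plus strand: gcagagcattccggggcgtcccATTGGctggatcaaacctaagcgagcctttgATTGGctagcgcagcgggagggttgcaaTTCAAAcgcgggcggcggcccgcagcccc
Kif11, chr19:37376272-37376381, plus strand: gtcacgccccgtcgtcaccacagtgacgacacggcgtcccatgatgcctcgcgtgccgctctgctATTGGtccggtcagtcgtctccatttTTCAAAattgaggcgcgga

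The element nearest the start began 15 bases before it in Cdk1, 19 in Kif11, 23 in Top2a and 29 in Ube2c. This position was not general among the genes with the element. In Cdc20, Kif2c and Mki67 it also lay only before the start, and in Bub1b, Ccnb2 and Ect2 on both sides. The element of Prc1 lay before the later of its RefSeq starts but ran onto the first base of the earlier. In Anln, Aurka, Bub1, Cenpa, Cenpf, Hmmr, Kif23, Ndc80, Plk1, Spc25 and Ttk it lay only after the start. Neighbouring CCAAT boxes on the same strand lay 31 to 33 bases apart in 10 of 27 cases among these genes (37.0%) and in 8.30% of 3036 cases over all genes, a window chosen after the spacings were seen. Kif11 is shown because its promoter carries both motifs while its share of the set's summed level varied more than for most genes, as described further on. Its order over the labelled knockout libraries was that of the summed level, while its order over the labelled wild-type libraries differed from it. A match is a description of letters and not a tested binding site. The median log2 fold change, labelled knockout over labelled wild type, was -0.23 for the 22 genes with TTTGAA or TTCGAA. It was -0.24 for the 7 genes without it and -0.29 for the 5 genes not found among the promoters. A link between motifs and levels was not tested.

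The miRNAs named by the label share a seed with the other family members. RefSeq gives these mature sequences, 5′ to 3′, with the seed (bases 2 to 8) in capitals.
miR-29a-3p: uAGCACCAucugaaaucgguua
miR-29b-3p: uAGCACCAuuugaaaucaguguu
The seed match TGGTGCT was present in the 3' UTR of 5 of the 34 genes (14.7%), Aurkb, Ccna2, Cenpf, Mad2l1 and Tpx2, against 1917 of 12378 tested genes with a 3' UTR of at least 50 bases (15.5%; longest 3' UTR per gene, GENCODE M21, GRCm38). The share among mitosis genes was thus close to that of all genes. Stretches of 28 bases around 3 of these sites are shown with the match in capitals, for the cyclin, for the gene with the lowest log2 fold change of the 5 and for the checkpoint gene that holds 2 sites, of which the one followed by A is given.
Ccna2, chr3:36566012-36566039, minus strand: attggttaacatTGGTGCTgccaactgt
Cenpf, chr1:189642461-189642488, minus strand: atgctgtgtgtgTGGTGCTcaggtctcc
Mad2l1, chr6:66541067-66541094, plus strand: tgatatttagttTGGTGCTaatatagtc

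The 5 genes with a site had log2 fold changes, labelled knockout over labelled wild type, of -0.30 (Aurkb), -0.29 (Ccna2), -0.38 (Cenpf), -0.24 (Mad2l1) and -0.26 (Tpx2), none of them past the test described next. Over all 34 genes the median was -0.25.

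Library totals ran from 13879472 to 17368666 counts. As a check of the labels, Mir29a had 0 counts in all 8 libraries. Mir29b-1 had 2 to 7 counts in the labelled knockout libraries and 0 in the labelled wild-type libraries, the reverse of the order the label names. It did not pass the low-count filter and was not tested. With counts this low, and Mir29a at 0 in both groups, these miRNA genes cannot check the label. Groups are therefore named by label. The neighbouring noncoding gene Lncpint was at 114 to 170 CPM (counts scaled to library size) in the labelled knockout libraries and 0.690 to 0.936 CPM in the labelled wild-type libraries, so the groups do differ at this locus. Mitosis genes were tested in a fit over all 14897 genes that passed a low-count filter, with edgeR's quasi-likelihood test and Benjamini-Hochberg adjustment. Of those genes 3 were called at an adjusted p under 0.05 (0.0201%), all higher in labelled knockout, and 402 (2.70%) had an unadjusted p under 0.05. DESeq2 called 22 genes and limma-voom 2, none of them a mitosis gene.

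All 34 mitosis genes passed the filter. None rose or fell past the threshold in labelled knockout libraries (adjusted p 0.994 to 0.998 in edgeR's quasi-likelihood test), and none had an unadjusted p under 0.05, the smallest being 0.157 for Mki67. DESeq2 and limma-voom likewise gave 0 of the 34 at an unadjusted p under 0.05. The edgeR adjusted p was 0.994 for each of the 34 genes other than Plk1, where it was 0.998, and is not repeated with single genes. The log2 fold change was below 0 for 31 of 34 genes, against 48.0% of all genes tested. Its median was -0.25 with a middle range of -0.30 to -0.17, against a median of 0.011 and a middle range of -0.13 to 0.16 for all genes tested. These 31 genes moved largely together across libraries, so they are not independent of each other. The 95% intervals of the genes other than Nek2 and Kif11 reached no lower than -1.16 (Ttk) and no higher than 0.61 (Cdk1) on the log2 scale. The groups overlapped for all 34 genes, where 1.53% of all genes tested had groups that did not overlap. In the authors' deposited table, too, 0 of the 34 had a p under 0.05, the smallest adjusted p being 1.00 when rounded.

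**Figure D1:**
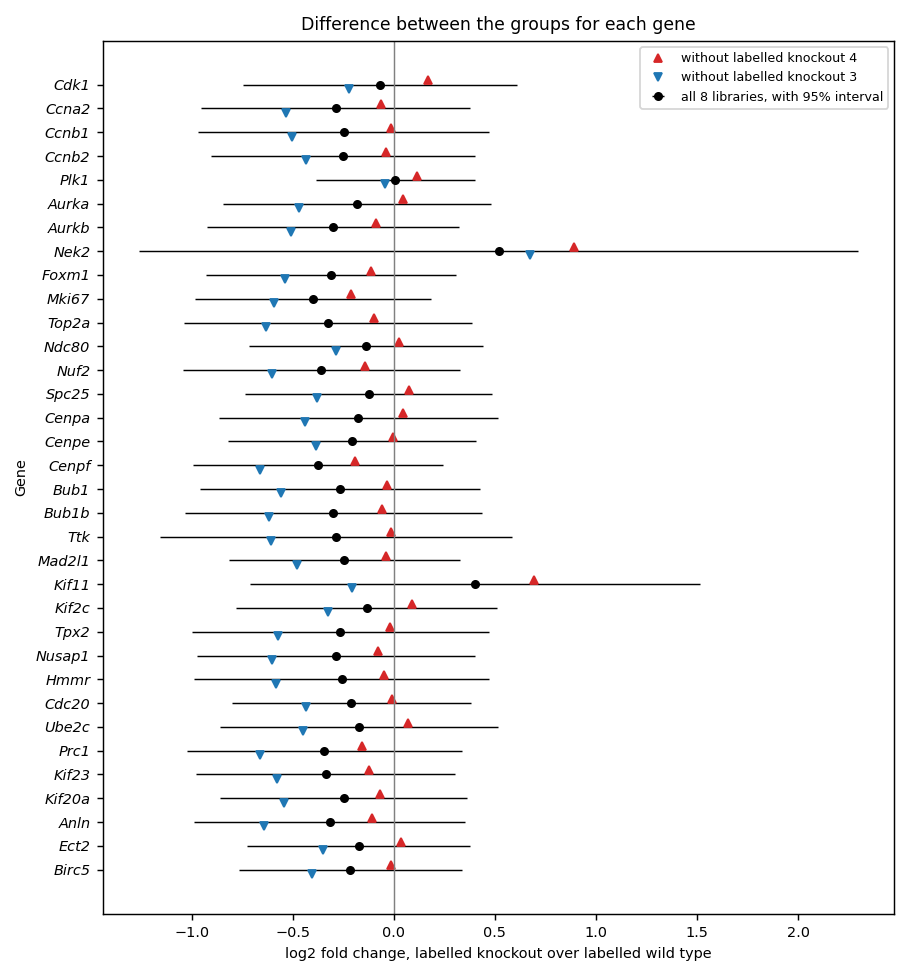
Log2 fold change of each gene, labelled knockout over labelled wild type (horizontal axis), from the fit to all 8 libraries (circles, with 95% intervals) and from fits without labelled knockout replicate 4 (triangles up) or replicate 3 (triangles down). All intervals include 0; the median of the circles is -0.25, that of the upward triangles -0.026 and that of the downward triangles -0.51.

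The chromosome proteins Mki67 and Top2a had log2 fold changes of -0.40 and -0.33. Mki67 (chromosome 7, 135689784 to 135716361, minus strand, GRCm38) encodes Ki-67, which coats mitotic chromosomes and marks cycling cells. It was at 236, 191, 290 and 125 CPM in labelled knockout replicates 1 to 4, against 339, 248, 211 and 310 CPM in labelled wild-type replicates 1 to 4. Labelled knockout replicate 4 was the lowest library and labelled wild-type replicate 1 the highest, and the groups overlapped. The means were 210 ± 70.0 CPM in labelled knockout and 277 ± 58.0 CPM in labelled wild type (SD, n = 4 each), which is 0.758-fold. The 95% interval of its log2 fold change was -0.98 to 0.18 (SE 0.26). Top2a (chromosome 11, 98992943 to 99024189, minus strand), the topoisomerase that untangles sister chromatids, was at 233, 187, 342 and 108 CPM in labelled knockout replicates 1 to 4, against 331, 271, 197 and 292 CPM in labelled wild-type replicates 1 to 4. Here labelled knockout replicate 3 was the highest of all 8 libraries and replicate 4 the lowest, so the labelled knockout range enclosed the labelled wild-type range. The SE of its log2 fold change was 0.32.

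CDK1 and its cyclins set entry into mitosis, and all 4 had log2 fold changes below 0, from -0.29 to -0.068. Cdk1 (chromosome 10, 69335146 to 69352938, minus strand), the mitotic kinase itself, was at 62.3, 38.2, 58.6 and 21.1 CPM in labelled knockout replicates 1 to 4, against 54.5, 40.7, 41.1 and 52.7 CPM in labelled wild-type replicates 1 to 4. It was one of 2 genes whose highest library was labelled knockout replicate 1, and its log2 fold change was -0.068 (SE 0.30; 95% interval -0.75 to 0.61). Without labelled knockout replicate 4 this turned to 0.17, without labelled knockout replicate 2 to 0.0054 and without labelled wild-type replicate 1 to 0.0085. Ccnb1, cyclin B1, was at 41.2, 37.3, 57.4 and 18.6 CPM in labelled knockout replicates 1 to 4, against 61.6, 34.6, 36.1 and 51.3 CPM in labelled wild-type replicates 1 to 4. The labelled wild-type libraries themselves split into a higher pair (1 and 4) and a lower pair (2 and 3) for this gene, and the log2 fold change was -0.25 (SE 0.32). Ccnb2, cyclin B2, was at 45.0, 38.3, 53.3 and 20.9 CPM in labelled knockout replicates 1 to 4, against 65.8, 36.7, 37.3 and 48.2 CPM in labelled wild-type replicates 1 to 4. It had the highest level per length of the 4, at 25.5 ± 8.88 FPKM in labelled knockout and 30.4 ± 8.59 FPKM in labelled wild type (SD, n = 4 each). The log2 fold change of Ccnb2 was -0.25 (SE 0.29). Ccna2, cyclin A2, was at 77.8, 58.7, 98.4 and 33.3 CPM in labelled knockout replicates 1 to 4, against 102, 76.9, 64.0 and 84.5 CPM in labelled wild-type replicates 1 to 4 (log2 fold change -0.29, SE 0.30). Exosc9, on the opposite strand, shares 863 bases with Ccna2, and the labels do not say whether the counting used strand.

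Foxm1 (chromosome 6, 128362967 to 128376146, plus strand), the transcription factor that activates late cell cycle genes, was highest in labelled wild-type replicate 1 and lowest in labelled knockout replicate 4. It was at 36.1, 29.1, 46.9 and 18.6 CPM in labelled knockout replicates 1 to 4, against 54.2, 34.2, 32.2 and 41.6 CPM in labelled wild-type replicates 1 to 4. The log2 fold change was -0.31 (SE 0.27). Its share of the summed CPM of the 34 genes was nearly constant, from 2.13% to 2.44% over the 8 libraries.

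**Figure D2:**
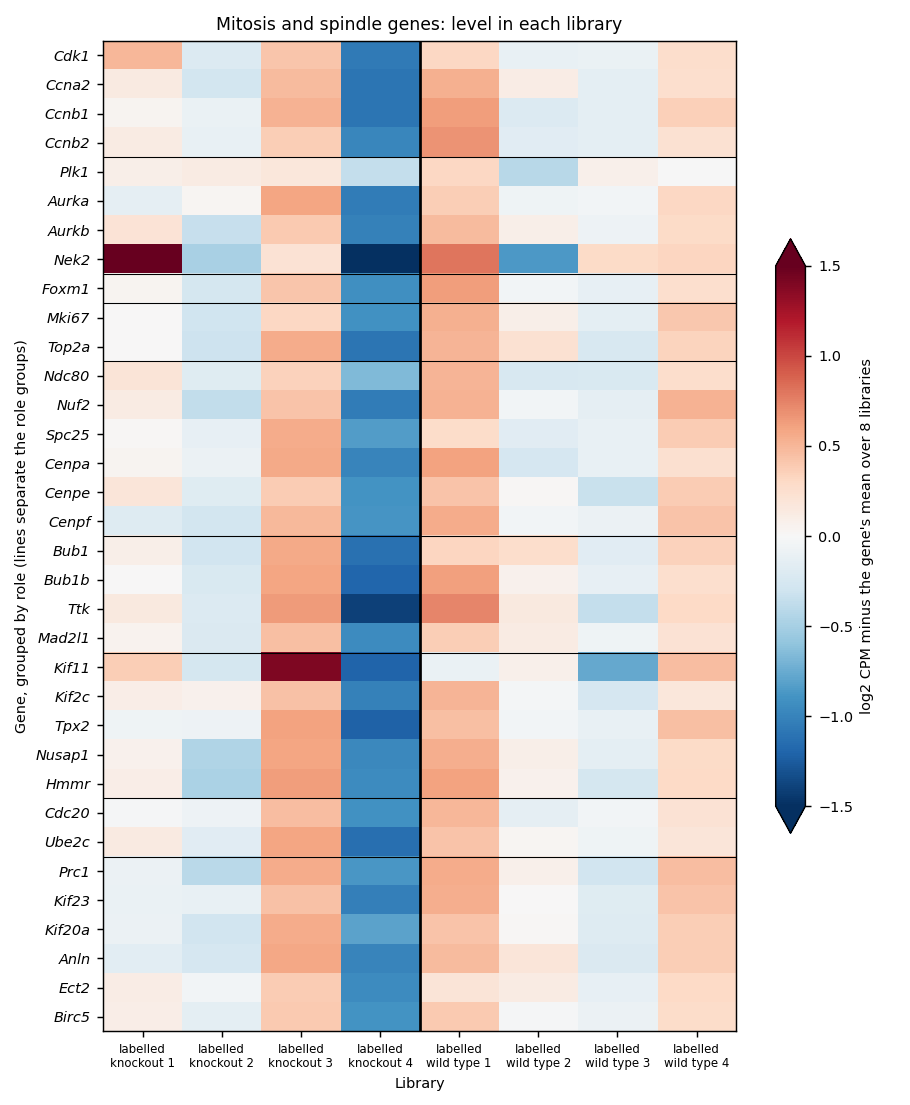
Level of each of the 34 genes (rows, grouped by role) in each library (columns, labelled knockout left of the line and labelled wild type right of it), as log2 CPM minus the mean of that gene over the 8 libraries. Labelled knockout replicate 4 is the lowest library for 33 genes, and labelled wild-type replicate 1 or labelled knockout replicate 3 is the highest for 32.

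Plk1, Aurka, Aurkb and Nek2, grouped here as mitotic kinases apart from CDK1 and the checkpoint kinases, did not share one pattern. Plk1 (chromosome 7, 122159439 to 122169873, plus strand), the Polo-like kinase of centrosomes and kinetochores, had the highest level per length of the set, at 33.6 ± 5.08 FPKM in labelled knockout and 33.3 ± 6.55 FPKM in labelled wild type (SD, n = 4 each). It was at 78.1, 79.9, 82.4 and 57.3 CPM in labelled knockout replicates 1 to 4, against 91.1, 54.7, 77.2 and 73.1 CPM in labelled wild-type replicates 1 to 4. It was the sole gene of the set whose lowest library was not labelled knockout replicate 4. The log2 fold change of Plk1 was 0.0078 (SE 0.17; 95% interval -0.38 to 0.40), and the locus Gm44985 on the opposite strand shares 1016 bases with it and had 2789 counts over all libraries beside 9186 for Plk1. Aurkb, the kinase of the chromosomal passenger complex, was at 40.4, 27.6, 46.3 and 17.4 CPM in labelled knockout replicates 1 to 4, against 48.9, 37.2, 33.4 and 42.7 CPM in labelled wild-type replicates 1 to 4 (log2 fold change -0.30, SE 0.28). Aurka, the Aurora kinase of spindle poles, had -0.18 (SE 0.29) and 0.045 without labelled knockout replicate 4.

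Nek2 and Kif11 are singled out because they stood apart once the values were seen. Nek2 (chromosome 1, 191821444 to 191833050, plus strand), a kinase that separates centrosomes, had 60, 10, 18 and 2 counts in labelled knockout replicates 1 to 4, against 26, 8, 19 and 17 counts in labelled wild-type replicates 1 to 4. It was the lowest gene of the set, at a mean of 0.291 FPKM over the 8 libraries, and a single library held its highest value. The log2 fold change was 0.52 (SE 0.79), and without labelled knockout replicate 1 it turned to -0.76. Kif11 (chromosome 19, 37376403 to 37421859, plus strand), the kinesin that pushes spindle poles apart, was at 9.77, 6.31, 19.9 and 3.29 CPM in labelled knockout replicates 1 to 4, against 7.04, 7.96, 4.44 and 10.4 CPM in labelled wild-type replicates 1 to 4. Its highest library was labelled knockout replicate 3, well above the others. The log2 fold change was 0.40 (SE 0.49), and without labelled knockout replicate 3 it turned to -0.21.

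Kinetochore genes, whose products tie chromosomes to microtubules, were all below 0, with a median of -0.19 over 6 genes. Cenpf, a large kinetochore and nuclear matrix protein, had the smallest p among them, at 35.4, 33.4, 56.3 and 21.9 CPM in labelled knockout replicates 1 to 4, against 59.5, 39.3, 38.0 and 54.2 CPM in labelled wild-type replicates 1 to 4 (log2 fold change -0.38, SE 0.27). Cenpa, the centromere histone, was at 55.1, 50.7, 79.5 and 27.1 CPM in labelled knockout replicates 1 to 4, against 81.5, 45.3, 49.7 and 63.4 CPM in labelled wild-type replicates 1 to 4. For Cenpa, 3 labelled knockout libraries lay within the range of labelled wild type and replicate 4 lay below it (log2 fold change -0.17, SE 0.31). The microtubule-binding NDC80 complex genes Ndc80, Nuf2 and Spc25 had log2 fold changes of -0.14, -0.36 and -0.12, and Cenpe, a kinetochore kinesin, had -0.21. Without labelled knockout replicate 4, Ndc80, Spc25 and Cenpa turned to 0.028, 0.074 and 0.047.

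Checkpoint genes delay chromosome separation until every kinetochore is attached, and all 4 were below 0, from -0.30 to -0.24. Bub1b, the BubR1 subunit of the inhibitory complex, was at 43.4, 36.8, 65.2 and 19.0 CPM in labelled knockout replicates 1 to 4, against 66.3, 45.0, 39.7 and 51.5 CPM in labelled wild-type replicates 1 to 4 (log2 fold change -0.30, SE 0.33). Mad2l1, which encodes MAD2, was at 31.8, 26.4, 42.1 and 15.97 CPM in labelled knockout replicates 1 to 4, against 39.6, 33.3, 29.4 and 35.7 CPM in labelled wild-type replicates 1 to 4 (log2 fold change -0.24, SE 0.25). Both genes put labelled knockout replicate 3 and labelled wild-type replicate 1 on top and labelled knockout replicate 4 at the bottom. The kinases Bub1 and Ttk had -0.27 (SE 0.31) and -0.29 (SE 0.39), and Ttk had the largest SE of the 4, with 57 to 313 counts in labelled knockout and 158 to 320 counts in labelled wild type.

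Spindle assembly factors other than Kif11 were also below 0. Nusap1, which bundles spindle microtubules, was at 38.1, 26.7, 54.8 and 18.6 CPM in labelled knockout replicates 1 to 4, against 53.1, 38.7, 32.9 and 44.3 CPM in labelled wild-type replicates 1 to 4 (log2 fold change -0.29, SE 0.30). Tpx2, the activator of Aurora A, had -0.26 (SE 0.33), Hmmr, a microtubule-associated protein, -0.26 (SE 0.32) and Kif2c, a kinesin that shortens microtubules, -0.13 (SE 0.29). Oip5, on the opposite strand, shares 172 bases with Nusap1.

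Exit from mitosis runs through the anaphase-promoting complex, a ubiquitin ligase that is activated by CDC20 and works with the conjugating enzyme UBE2C. Cdc20 was at 52.6, 50.3, 73.3 and 28.4 CPM in labelled knockout replicates 1 to 4, against 75.03, 48.3, 51.6 and 62.0 CPM in labelled wild-type replicates 1 to 4 (log2 fold change -0.21, SE 0.26). Ube2c was at 74.6, 60.2, 102 and 30.9 CPM in labelled knockout replicates 1 to 4, against 91.1, 69.2, 64.9 and 76.8 CPM in labelled wild-type replicates 1 to 4 (log2 fold change -0.17, SE 0.30). For Ube2c the highest and the lowest library both carried the knockout label. Elovl1, on the opposite strand, shares 53 bases with Cdc20.

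Cytokinesis genes split the cell, and all 6 were below 0, from -0.34 to -0.17. Kif23, the kinesin of the central spindle, was at 48.4, 48.1, 70.4 and 25.6 CPM in labelled knockout replicates 1 to 4, against 75.7, 52.0, 45.9 and 69.8 CPM in labelled wild-type replicates 1 to 4 (log2 fold change -0.34, SE 0.28). Birc5, which encodes survivin of the chromosomal passenger complex, was at 46.1, 38.8, 56.5 and 23.1 CPM in labelled knockout replicates 1 to 4, against 56.4, 42.3, 40.3 and 51.9 CPM in labelled wild-type replicates 1 to 4 (log2 fold change -0.21, SE 0.25). Its share of the summed CPM of the set varied the least, between 2.54% and 2.86%. Prc1, which crosslinks midzone microtubules, had -0.34 (SE 0.30), Anln, the scaffold of the contractile ring, -0.32 (SE 0.30), Kif20a, a central spindle kinesin, -0.25 (SE 0.27), and Ect2, the activator of RhoA at the cleavage site, -0.17 (SE 0.24). Rccd1 lies opposite Prc1 over 21810 bases and Cdc23 opposite Kif20a over 2327 bases. Shared bases given here and above are of whole gene spans, introns included. Overlap of exons was not examined, so the values of Prc1 and Kif20a may be uncertain unless strand was used.

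The level of the whole set varied from library to library. The summed level of the 34 genes was 1636, 1365, 2185 and 807 CPM in labelled knockout replicates 1 to 4, against 2219, 1606, 1424 and 1956 CPM in labelled wild-type replicates 1 to 4. The means were 1498 ± 573 CPM in labelled knockout and 1801 ± 355 CPM in labelled wild type (SD, n = 4 each), so the groups' means lay closer together than the SD of labelled knockout. Replicate 3 of the labelled knockout group exceeded replicate 4 for all 34 genes, by 1.44-fold to 6.78-fold with a median of 2.76-fold. The SD was larger in labelled knockout than in labelled wild type for 33 genes, with a median of 40.6% of the mean in labelled knockout and 21% in labelled wild type. Labelled knockout replicate 4 lay below every labelled wild-type library for 33 genes. Replicate 2 lay below the lowest labelled wild-type library for 18 genes and replicate 1 for 2, while replicate 3 lay above the highest labelled wild-type library for 15.

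The median log2 fold change therefore depended on which library was left out. Leaving out labelled knockout replicate 4 gave -0.026 with 23 of 34 genes below 0, against 51.5% of all genes tested in that fit. Leaving out replicate 3 of that group gave -0.51 with 33 of 34 below 0, against 49.0% of all genes tested there. Without labelled knockout replicate 3, 7 genes (Top2a, Mki67, Cenpf, Nusap1, Prc1, Anln and Kif20a) had an unadjusted p under 0.05, all with a log2 fold change below 0, and the smallest adjusted p was 0.576 (edgeR quasi-likelihood test). In that fit 1305 of 15147 genes had an unadjusted p under 0.05, and 552 of them (3.64% of all tested) were lower in labelled knockout. Without labelled wild-type replicate 1 the median was -0.13. In the remaining 5 fits that left out 1 library it ran from -0.35 to -0.20, and no fit called any of the 34 genes.

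Proportions within the set were steadier than its summed level. Mki67 made up 13.3% to 15.9% of the summed CPM over the 8 libraries and Top2a 13.4% to 16.9%. The share of a gene varied less than 1.61-fold between its highest and lowest library for 31 of the 34 genes, while the sum varied from 807 to 2219 CPM. The exceptions were Nek2 (13.9-fold), Kif11 (2.92-fold) and Plk1 (2.08-fold). The share of Plk1 was 7.10% in labelled knockout replicate 4, the library with the lowest sum, against 3.77% to 5.85% in the other labelled knockout libraries and 3.41% to 5.42% in labelled wild type.

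**Figure D3:**
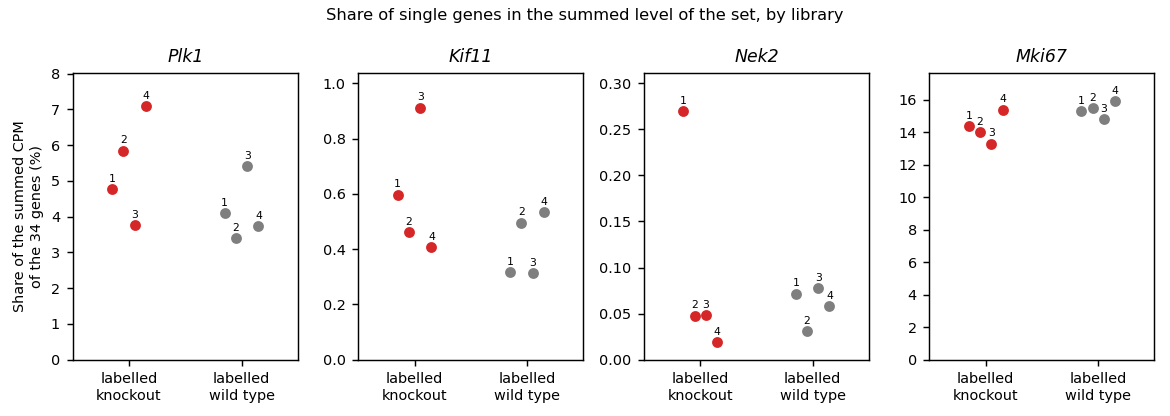
Share of Plk1, Kif11, Nek2 and Mki67 in the summed CPM of the 34 genes (vertical axes, percent), labelled knockout left and labelled wild type right, with replicate numbers beside the points. Plk1 is highest in labelled knockout replicate 4 (7.10%), Kif11 in replicate 3 (0.912%) and Nek2 in replicate 1 (0.270%), while Mki67 stays between 13.3% and 15.9%.

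A further list of 83 mitosis genes, among them condensins, centromere proteins and MuvB subunits, was examined beside the 34. All 83 were tested, and 0 passed the threshold (edgeR), against 0.0201% of all genes tested. An unadjusted p under 0.05 was found for 1 of the 83, against 2.70% of all genes tested. The log2 fold change was below 0 for 76 of them, against 48.0% of all genes tested, with a median of -0.25. Leaving out labelled knockout replicate 4 gave -0.047, and leaving out replicate 3 of that group gave -0.44. Mad1l1, which recruits MAD2 to kinetochores, had the smallest p, at 13.4, 11.6, 11.5 and 8.61 CPM in labelled knockout replicates 1 to 4, against 19.7, 14.4, 15.6 and 16.1 CPM in labelled wild-type replicates 1 to 4. Every labelled knockout library lay below every labelled wild-type library for Mad1l1 (log2 fold change -0.55, SE 0.17, adjusted p = 0.994 in edgeR's test over all genes), and the value was -0.44 without labelled knockout replicate 4. Of all genes tested, 1.53% had groups that did not overlap. Smc4, a condensin subunit, had -0.36 (SE 0.17) and Depdc1b had -0.70 (SE 0.35). On the other side, Mad2l2, known from DNA repair and as an inhibitor of the anaphase-promoting complex, had 0.56 (SE 0.27) and 0.28 without labelled knockout replicate 4, Lin37, a MuvB subunit, 0.24 (SE 0.12, groups not overlapping) and Numa1, a spindle pole protein, 0.069 (SE 0.12).

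DNA replication genes, which act earlier in the cycle than mitosis, were also low in the library that was low for mitosis genes. The summed level of 40 such genes was 1453, 1296, 1769 and 928 CPM in labelled knockout replicates 1 to 4, against 1783, 1792, 1472 and 1725 CPM in labelled wild-type replicates 1 to 4. Of these 40 genes 39 were below 0, against 48.0% of all genes tested, with a median of -0.31. None passed the threshold (edgeR), and 3 had an unadjusted p under 0.05, against 2.70% of all genes tested. Leaving out labelled knockout replicate 4 moved the median to -0.16. The mitosis sum over the replication sum was 1.13, 1.05, 1.24 and 0.870 in labelled knockout replicates 1 to 4, against 1.24, 0.896, 0.967 and 1.13 in labelled wild-type replicates 1 to 4. The ratio was thus lowest in labelled knockout replicate 4 but labelled wild-type replicate 2 lay close to it. Inhibitors and repressors of the cycle, 17 of 18 tested, had a median of -0.023 and a summed level of 856 to 1332 CPM in labelled knockout and 910 to 982 CPM in labelled wild type, with the 1332 CPM in labelled knockout replicate 4.

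**Figure D4:**
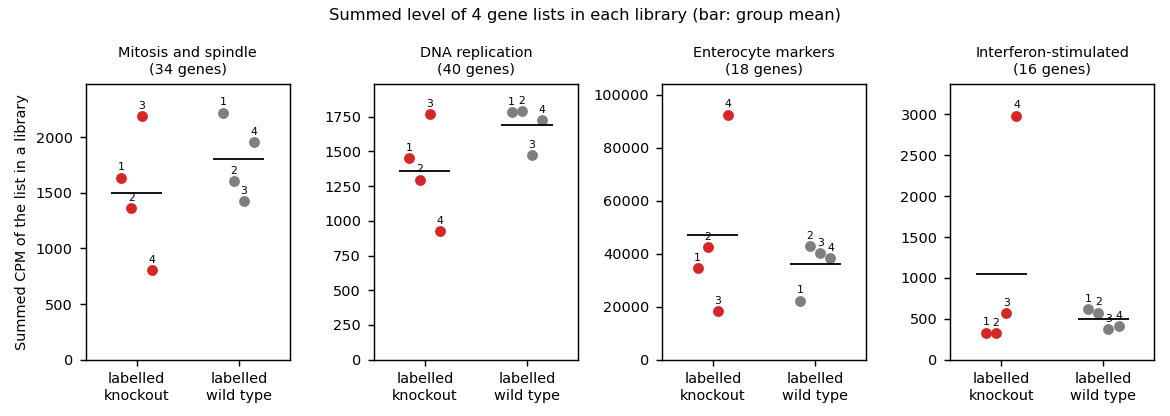
Summed CPM of 4 gene lists in each library (vertical axes from 0), labelled knockout left and labelled wild type right, with replicate numbers beside the points and a bar at the group mean. Labelled knockout replicate 4 is lowest for mitosis (807 CPM) and replication genes (928 CPM) and highest for enterocyte markers (92570 CPM) and interferon-stimulated genes (2985 CPM).

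Other gene lists also differed between libraries. Enterocyte markers and interferon-stimulated genes were highest in labelled knockout replicate 4, where the mitosis sum was lowest. The 18 enterocyte markers, all tested, summed to 34630, 42460, 18360 and 92570 CPM in labelled knockout replicates 1 to 4, against 22340, 43020, 40340 and 38260 CPM in labelled wild-type replicates 1 to 4, so the libraries with the most enterocyte RNA and the least were labelled knockout replicates 4 and 3. The 16 interferon-stimulated genes summed to 322 to 571 CPM in labelled knockout replicates 1 to 3, to 2985 CPM in labelled knockout replicate 4 and to 377 to 617 CPM in labelled wild type. Crypt base stem cell markers, 16 of 16 tested, summed to 1874 to 4579 CPM in labelled knockout, the lowest in replicate 4, and to 2927 to 4965 CPM in labelled wild type. The part of these differences in the mitosis values was not tested.

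Among the other lists, Paneth markers (14 of 14 tested) summed to 22180 to 68430 CPM in labelled knockout and 26040 to 32750 CPM in labelled wild type. Goblet markers (10 of 10) summed to 6806 to 9726 CPM in labelled knockout and 6327 to 11270 CPM in labelled wild type, and enteroendocrine markers (10 of 10) to 255 to 698 CPM in labelled knockout and 363 to 553 CPM in labelled wild type. Tuft markers (9 of 10 tested) reached 110 to 341 CPM in labelled knockout and 81.8 to 508 CPM in labelled wild type. Dividing immune cells would also express mitosis genes, and T cell markers (12 of 12) summed to 101 to 228 CPM in labelled knockout and 125 to 362 CPM in labelled wild type. B and plasma cell markers (9 of 10) summed to 41.2 to 91.0 CPM in labelled knockout and 41.0 to 277 CPM in labelled wild type, and myeloid markers (10 of 11) to 46.9 to 70.2 CPM in labelled knockout and 58.6 to 101 CPM in labelled wild type. Stromal markers (5 of 12) summed to 16.2 to 27.8 CPM in labelled knockout and 12.9 to 70.4 CPM in labelled wild type, and red cell markers (4 of 7, with Slc4a1 at 0 counts throughout) to 8.90 to 55.1 CPM in labelled knockout and 2.69 to 15.03 CPM in labelled wild type. No gene of these lists passed the threshold (edgeR). An unadjusted p under 0.05 (edgeR) was found for 3 of 9 B and plasma cell markers tested (list median log2 fold change -0.87) and 2 of 12 T cell markers (-0.36). It was also found for 2 of 14 Paneth markers (0.36), 1 of 10 myeloid markers (-0.43) and 1 of 4 red cell markers (1.47). These shares of small lists lie above the 2.70% of all genes tested. The goblet, enteroendocrine, tuft and stromal lists had 0 such genes. The part of these lists in the mitosis values was not tested.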

How the data were processed

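Counts per gene and library, with FPKM, were deposited as 1 table of 55880 genes. Reads had been handled with HISAT2 and DESeq2 per the submitters' processing notes; no version, read counter or strand setting is named there. RNA was taken with TRIzol and a directional library kit was used, per the labels' protocols. The deposited FPKM equal counts over gene length and a constant for each library (relative deviation at most 7.2e-07). In the authors' deposited table, group means (a normalized signal), log2 fold changes and p-values stand beside the counts, and are quoted only where named. The coordinates of all 34 genes equal those of GENCODE M21 (GRCm38).

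From the deposited counts, edgeR 4.0.16 (R 4.3.3) gave a robust quasi-likelihood test over all genes kept by filterByExpr, with TMM scaling and a threshold of 0.05. The SE is the absolute log2 fold change over the root of F, and 95% intervals use its t quantile, both approximations. CPM use TMM library sizes. Alternatives were RLE factors, DESeq2 1.42.0, limma-voom (limma 3.58.1), a fit with no filter, a floor of 5 CPM in 4 libraries, the replicate number as a block, library totals (added after the data were seen) and leaving out each library. Libraries of 1 group always differed by more than sampling noise (lowest chi-square over its degrees of freedom 28.9). Rows with an identifier but no symbol (409) stayed in the table.

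The members and lists were chosen with earlier results of these data known. All members may be named; those given in full are Mki67, Top2a, Cdk1, Ccnb1, Plk1, Aurkb, Foxm1 and, per role, the gene with the smallest p and that with the highest FPKM. From the further mitosis list the 3 smallest p in each direction are named. Ube2c, Nek2 and Kif11 are given by library beyond this rule. Sequences come from RefSeq tables (GRCm38.p6) and GENCODE M21 transcripts.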

Additional observations from a re-analysis of the deposited data

Results flagged for a closer look

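None of the 68 groups of 4 libraries formed by the 34 mitosis genes held a library set apart from the other 3 by more than Dixon's 95% critical ratio. Among the 32 groups formed by gene lists there were 3 such libraries, where chance gives about 1 in 20 groups. The interferon-stimulated list summed to 2985 CPM in labelled knockout replicate 4, against 322 to 571 CPM in the other labelled knockout libraries. The red cell list summed to 55.1 CPM in labelled knockout replicate 4, against 8.90 to 14.3 CPM in the other labelled knockout libraries. The enteroendocrine list summed to 553 CPM in labelled wild-type replicate 1, against 363 to 380 CPM in the other labelled wild-type libraries. Labelled knockout replicate 4 is the library with the lowest sum of mitosis genes (807 CPM) and labelled wild-type replicate 1 the one with the highest (2219 CPM).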

How the results depend on the processing

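No alternative called any of the 34 mitosis genes or of the 83 further ones. Over all genes, DESeq2 called 22 and the fit with no low-count filter 5, against 3, and 2 to 3 were called when single libraries were left out; the cause was not tested. The median log2 fold change of the 34 genes was -0.31 to -0.25 in the 7 alternatives with all libraries, and -0.51 to -0.026 without single libraries. Library totals in place of TMM moved the median of all genes to -0.068, against 0.011, and the mitosis median to -0.30. Of 509 values of single genes, 488 kept their direction. Nek2 turned to -0.19 with limma-voom and Plk1 to -0.065 with library totals. Without single libraries the ranges that crossed 0 were Plk1 -0.11 to 0.12, Nek2 -0.76 to 0.89, Kif11 -0.21 to 0.69, Cdk1 -0.26 to 0.17, Cenpa -0.44 to 0.047, Kif2c -0.32 to 0.090, Ndc80 -0.29 to 0.028, Spc25 -0.38 to 0.074, Aurka -0.47 to 0.045, Ube2c -0.45 to 0.068 and Ect2 -0.35 to 0.035. No sign was seen that replicate numbers pair the libraries. Correlations of same-numbered deviations were -0.38 to 0.059, against -0.18 to 0.31 for differently numbered ones. So few libraries cannot exclude pairing. With the replicate block 2 genes were called, none of them a mitosis gene, and the mitosis median was -0.31. Counts of 2 to 60 limit Nek2. Intervals cover the spread of these 8 libraries only.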
